A study of Mus musculus with 8 samples.

Results

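The genes described here are 38 mouse genes of the autophagy and lysosome system with the transcription factors that drive them, taken by symbol from the 24328 gene symbols measured in muscle stem cells. All 38 were found, and all 38 passed the filter on low values (at least 1 FPKM in at least 2 libraries), as did 12515 symbols in all. They are 3 FoxO factors, 2 factors of the TFEB type, 7 genes that start an autophagosome, 6 conjugation enzymes, 5 genes of the Atg8 family, 2 mitophagy receptors, 4 genes of the lysosomal membrane and 9 of the lysosomal lumen.

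Autophagy encloses cytoplasm in a double membrane, the autophagosome, and delivers it to the lysosome, where acid hydrolases degrade it. Proteins of the Atg8 family are coupled to the growing membrane by enzymes that resemble the ubiquitin system, and they hold both the membrane machinery and the cargo. FoxO factors, TFEB and TFE3 activate genes of this system. Insulin and growth factor signalling keep FoxO factors out of the nucleus, and mTORC1 keeps TFEB and TFE3 in the cytoplasm. In the satellite cells of skeletal muscle, which are its stem cells, autophagy and FoxO activity are known for their part in maintaining quiescence, the resting state from which injury recruits the cells.

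The data were 8 RNA-seq libraries of sorted satellite cells, 2 in each of 4 groups, all from C57BL/6 mice of 2 months. Pax7-nGFP mice, which carry a nuclear green fluorescent reporter of Pax7, gave the cells fixed in place by perfusion with paraformaldehyde (PFA-perfused) and the cells perfused with buffer alone (PBS-perfused). Wild type mice gave the cells taken without perfusion (unperfused) and the cells taken without perfusion 2.5 days after injury (injury-activated). Cells were sorted on the presence of Vcam and the absence of Sca-1, CD45 and CD31. Fixed cells gave RNA through a kit meant for paraffin-embedded material, and all unfixed cells through another one meant for small inputs. Fixation and RNA kit therefore cannot be told apart between PFA-perfused and PBS-perfused cells. Between PFA-perfused and unperfused cells, fixation, perfusion, RNA kit and genotype cannot be told apart. Between PFA-perfused and injury-activated cells, injury is added to these. PBS-perfused and unperfused cells differed in both perfusion and genotype. The labels do not say whether 2 libraries of a group came from separate mice, so the p-values rest on a spread that may be technical. In bulk RNA, fewer cells of a type and less RNA per cell cannot be told apart.

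Levels are given in FPKM, fragments scaled to transcript length and library size, and differences on the scale of log2(FPKM + 1) with their standard error. That scale understates the change of genes with low levels. A gene was called higher or lower at a Benjamini-Hochberg adjusted p under 0.05 in limma, over all 12515 genes tested. FPKM are shares of a library. The groups differed in overall level: the median difference of all genes tested was -0.50 for PBS-perfused against PFA-perfused cells, -0.81 for unperfused against PFA-perfused, -0.36 for unperfused against PBS-perfused, 0.17 for injury-activated against unperfused and -0.48 for injury-activated against PFA-perfused. The ribosomal RNA symbol Rn45s alone took 9.80% and 19.4% of the summed FPKM in PFA-perfused cells and at most 6.64% elsewhere. Because overall levels differed, differences are given a second time after scaling by the trimmed mean of ratios, called the scaled difference below. With this scaling, 129 of 190 results (38 genes in 5 comparisons) kept their call. After removal of Rn45s and Malat1 and rescaling, 181 did.

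Pax7, the defining factor of satellite cells, was measured at 328 and 567 FPKM in PFA-perfused, 48.3 and 79.6 in PBS-perfused, 19.8 and 20.4 in unperfused and 4.59 and 4.40 in injury-activated cells, so it was present in each library. The whole list of 10 satellite cell markers did not follow it: it summed to 1849 to 2054 FPKM in PFA-perfused, 4446 to 4809 in PBS-perfused, 30288 to 43547 in unperfused and 1465 to 1498 in injury-activated cells. Sdc4, the highest of these markers in unperfused cells at a mean of 34234 FPKM, made up most of the sum there, none of the 10 was at 0 in both libraries of a group, and 2 were below 1 FPKM in both injury-activated libraries. Summed levels of 16 myeloid markers ran from 10.3 to 12.6 FPKM in PFA-perfused, 49.5 to 51.1 in PBS-perfused, 27.3 to 39.1 in unperfused and 86.4 to 94.9 in injury-activated cells. In unperfused cells Cd68, at a mean of 27.5 FPKM, made up most of that sum, and 14 of the 16 were below 1 FPKM in both libraries, against 5 after injury. Macrophages are rich in lysosomes, and the injury-activated cells, which had the highest sum, held Lyz2 at a mean of 43.5 FPKM, while Ptprc, which encodes the CD45 of the sort, stood at 0.203 and 0.250 FPKM. Against unperfused cells, 9 of 11 tested myeloid markers were called higher after injury and 1 lower, beside 40.8% and 29.3% of all genes. Summed levels of 12 endothelial markers were highest in PBS-perfused cells (163 to 240 FPKM) and lowest in injury-activated cells (8.12 to 8.56). Summed levels of 12 myofibre markers were 59.6 to 64.5 FPKM in unperfused and 277 to 321 in injury-activated cells. Those of 11 fibro-adipogenic markers were 882 to 1114 and 170.0 to 192. Dpt, at a mean of 465 FPKM, was the highest of the 11 in unperfused cells. In injury-activated against unperfused cells, 5 of the 10 tested were called higher and 3 lower, beside 40.8% and 29.3% of all genes. Of 8 tested myofibre markers, 6 were called higher and 0 lower in that comparison. The part of such cells in the results below was not tested. The 2 injury-activated libraries were closer to each other (Pearson r across genes 0.997) than the pairs of the other groups (0.972 to 0.981).

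Across the 38 genes, the 16 with their highest mean in PFA-perfused cells included Foxo1, Tfeb, Lamp1 and Mcoln1, and the 11 with their highest mean in PBS-perfused cells included Gabarapl1, Wipi2 and Lamp2. Injury-activated cells held the lowest mean for 18 genes, among them all 5 of the Atg8 family, and unperfused cells for 14, among them Ctsl, Ctsa and Bnip3. Over all genes tested, 35.6% were lowest in injury-activated and 37.7% in unperfused cells, against 13.0% and 13.7% in PFA-perfused and PBS-perfused cells, and 41.2% were highest in PFA-perfused and 16.8% in PBS-perfused cells. The members' summed level was between 0.461% and 0.908% of all FPKM in each library.

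**Figure D1:**
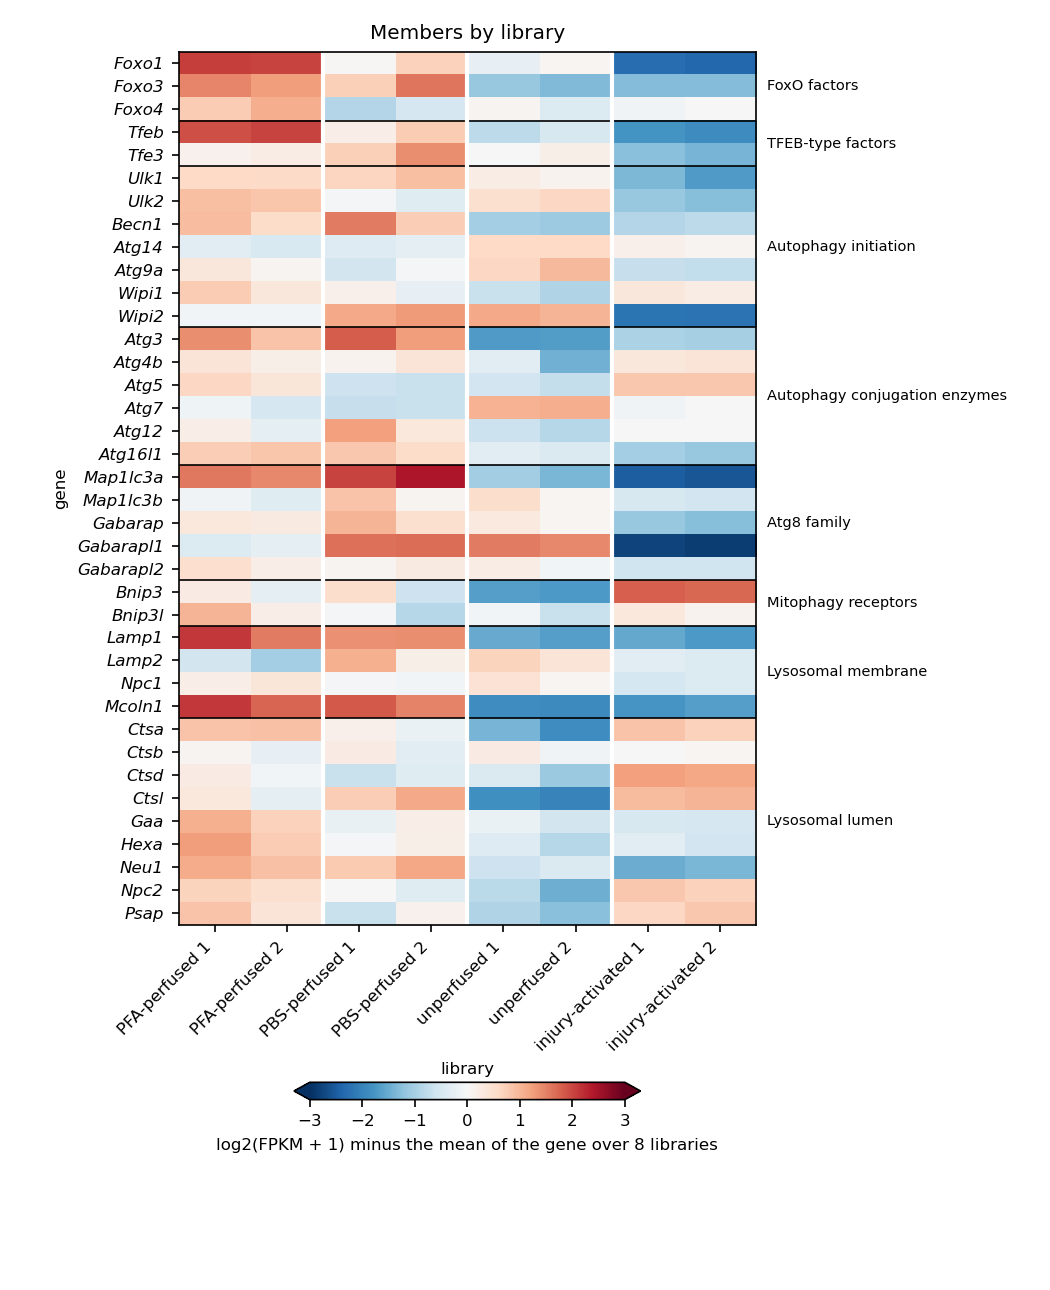
Level of each of the 38 genes (rows, grouped by role) in each of the 8 libraries (columns), as log2(FPKM + 1) minus the mean of the gene over the 8 libraries, with red above and blue below that mean. Foxo1, Foxo4 and Tfeb are most red in the PFA-perfused libraries and Tfe3 in the PBS-perfused ones. Foxo3 and the lysosomal membrane genes Lamp1 and Mcoln1 are red in the libraries of both perfused groups. The Atg8 family is blue in both injury-activated libraries.

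Against PFA-perfused cells, PBS-perfused cells had Gabarapl1, Lamp2 and Wipi2 as the largest rises and Foxo1, Foxo4 and Tfeb as the largest falls. Of the 38 genes, 7 were called higher (18.4%) and 12 lower (31.6%), beside 17.8% higher and 46.2% lower of all genes tested. After scaling, 13 were higher and 5 lower, beside 28.4% and 25.6% of all genes. The median difference of the 38 genes was -0.20, above the -0.50 of all genes. Single libraries weighed on these counts: 3 genes were called higher without PFA-perfused replicate 2, and 6 were called lower without PFA-perfused replicate 1.

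Unperfused cells, set against the same PFA-perfused libraries, had Gabarapl1, Atg7 and Lamp2 as the largest rises and Mcoln1, Lamp1 and Atg3 as the largest falls. Here 6 of 38 genes were called higher (15.8%) and 23 lower (60.5%), beside 17.4% and 56.3% of all genes tested. With scaling the counts were 14 and 11, beside 36.2% and 31.6% of all genes, so the excess of falls was not kept. The member median was -1.14, below the -0.81 of all genes, and -0.07 beside 0.06 after scaling. Both comparisons share the PFA-perfused libraries.

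Unperfused cells were set directly against PBS-perfused cells as well. Atg7, Atg9a and Atg14 were the largest rises, and Mcoln1, Map1lc3a and Atg3 the largest falls. Of the 38 genes, 4 were called higher (10.5%) and 18 lower (47.4%), beside 13.1% and 36.5% of all genes tested. The scaled counts were 8 higher and 13 lower, beside 24.9% and 22.9%.

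After injury, relative to unperfused cells, Bnip3, Ctsl and Ctsa showed the largest rises, and Gabarapl1, Wipi2 and Foxo1 the largest falls. In this comparison 10 of 38 genes were called higher (26.3%) and 17 lower (44.7%), beside 40.8% and 29.3% of all genes tested. Scaling left 9 higher and 18 lower, beside 39.7% and 34.5% of all genes. The member median was -0.09 beside 0.17 for all genes, and 21 of these 27 calls were made the same way under every alternative run. By role, 5 of 5 Atg8 genes and 5 of 7 initiation genes were called lower, with 1 initiation gene higher, while 5 of 9 lumen genes were called higher and 1 lower.

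Relative to PFA-perfused cells, injury-activated cells had Bnip3, Ctsd and Ctsl as the largest rises and Foxo1, Map1lc3a and Tfeb as the largest falls. Of the 38 genes, 4 were called higher (10.5%) and 22 lower (57.9%), beside 26.1% and 47.3% of all genes tested. The scaled counts were 14 higher and 15 lower, beside 43.3% and 30.1% of all genes. Without PFA-perfused replicate 2, 1 gene was called higher, and without either injury-activated library 2 were.

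**Figure D2:**
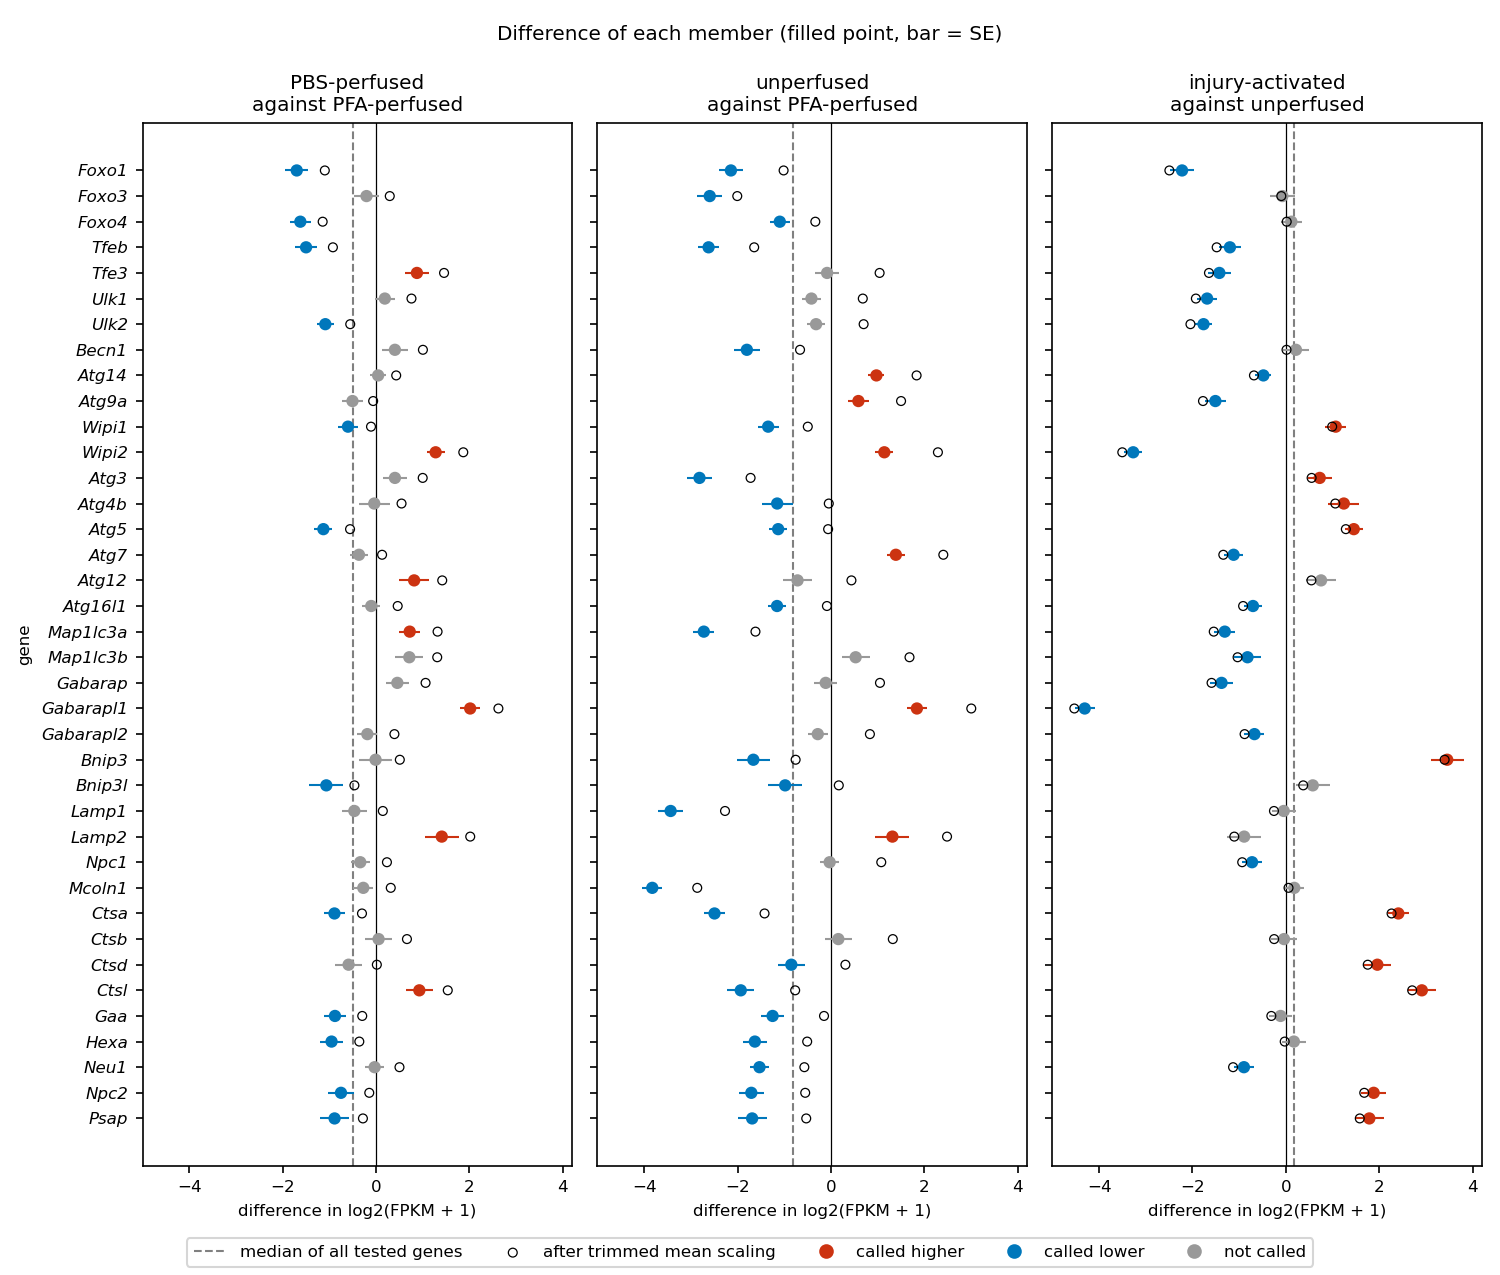
Difference of each gene in log2(FPKM + 1) for 3 of the 5 comparisons, with filled points for the unscaled difference (bar = SE; red called higher, blue called lower, grey not called), open circles for the scaled difference and a dashed line at the median of all genes tested. Gabarapl1 lies to the right in both comparisons with PFA-perfused cells (2.02 and 1.84) and farthest to the left after injury (-4.31), and the open circles lie to the right of the filled points in the first 2 panels.

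Foxo1, the FoxO factor with the highest FPKM in each group, was measured at 59.3 and 58.0 FPKM in PFA-perfused, 13.6 and 22.1 in PBS-perfused, 11.1 and 14.1 in unperfused and 1.97 and 1.82 in injury-activated cells. PFA-perfused libraries were the highest and injury-activated libraries the lowest without overlap, while PBS-perfused and unperfused cells overlapped. Foxo1 was lower in PBS-perfused than in PFA-perfused cells by -1.70 ± 0.25 (limma adjusted p = 4.0e-04, scaled -1.10). It was lower after injury than in unperfused cells by -2.22 ± 0.25 (limma adjusted p = 4.4e-05, scaled -2.49) and than in PFA-perfused cells by -4.37 ± 0.25 (limma adjusted p = 8.8e-07, scaled -3.51), where the means differed 30.9-fold.

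Foxo3, the factor tied most closely to atrophy genes in muscle, stood at 6.04 and 5.10 FPKM in PFA-perfused and 3.16 and 6.78 in PBS-perfused cells, but at 0.154 and 0.0185 in unperfused and 0.0327 and 0.0261 in injury-activated cells. Both perfused groups were above 3 FPKM and both unperfused groups below 0.2. The fall in unperfused against PBS-perfused cells was -2.39 ± 0.27 (limma adjusted p = 1.1e-04, scaled -2.30), and the perfused groups overlapped. Genotype follows the same line between the groups, so perfusion and genotype cannot be told apart for Foxo3 or for other genes that divide the groups in this way.

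Foxo4, the third factor of the family, was low throughout, at 3.02 and 4.003 FPKM in PFA-perfused, 0.282 and 0.657 in PBS-perfused, 1.49 and 0.769 in unperfused and 1.18 and 1.38 in injury-activated cells. It was lower in PBS-perfused than in PFA-perfused cells (-1.62 ± 0.22, limma adjusted p = 2.6e-04, scaled -1.14). The falls called in unperfused and injury-activated cells against PFA-perfused cells (-1.10 and -0.98) were not called after scaling (-0.33 and -0.32).

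Tfeb, a master activator of lysosomal and autophagy genes, was measured at 15.9 and 17.2 FPKM in PFA-perfused, 4.10 and 6.53 in PBS-perfused, 1.55 and 2.18 in unperfused and 0.285 and 0.198 in injury-activated cells. The groups followed one another in that order with no overlap between any neighbours. Tfeb was lower in PBS-perfused than in PFA-perfused cells by -1.50 ± 0.23 (limma adjusted p = 5.0e-04), in unperfused than in PBS-perfused cells by -1.12 ± 0.23 (0.00329) and in injury-activated than in unperfused cells by -1.20 ± 0.23 (0.00121). All 3 steps were also called after scaling (-0.92, -0.72 and -1.48), but the middle one was not called after quantile normalization (-0.71).

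Tfe3, the relative of Tfeb that binds the same sites, took another course, at 25.1 and 27.2 FPKM in PFA-perfused, 38.4 and 62.1 in PBS-perfused, 23.2 and 26.2 in unperfused and 9.03 and 8.11 in injury-activated cells. It was lower after injury than in unperfused cells (-1.42 ± 0.25, limma adjusted p = 7.1e-04, scaled -1.65). PFA-perfused and unperfused cells overlapped (-0.08), though the scaled difference was 1.04 and called higher. The rise in PBS-perfused over PFA-perfused cells (0.88 ± 0.25, scaled 1.46) was not called without PFA-perfused replicate 1 (0.82) or PBS-perfused replicate 2 (0.54). Within a library, where scaling cancels, the ratio of Tfe3 to Tfeb was 1.58 and 1.59 in PFA-perfused, 9.36 and 9.51 in PBS-perfused, 15.0 and 12.0 in unperfused and 31.7 and 41.0 in injury-activated cells. The ratios after injury divide by Tfeb at 0.285 and 0.198 FPKM, below the filter level of 1 FPKM, so their size is uncertain. Foxo6, Mitf and Tfec, the remaining relatives, were below the filter.

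**Figure D3:**
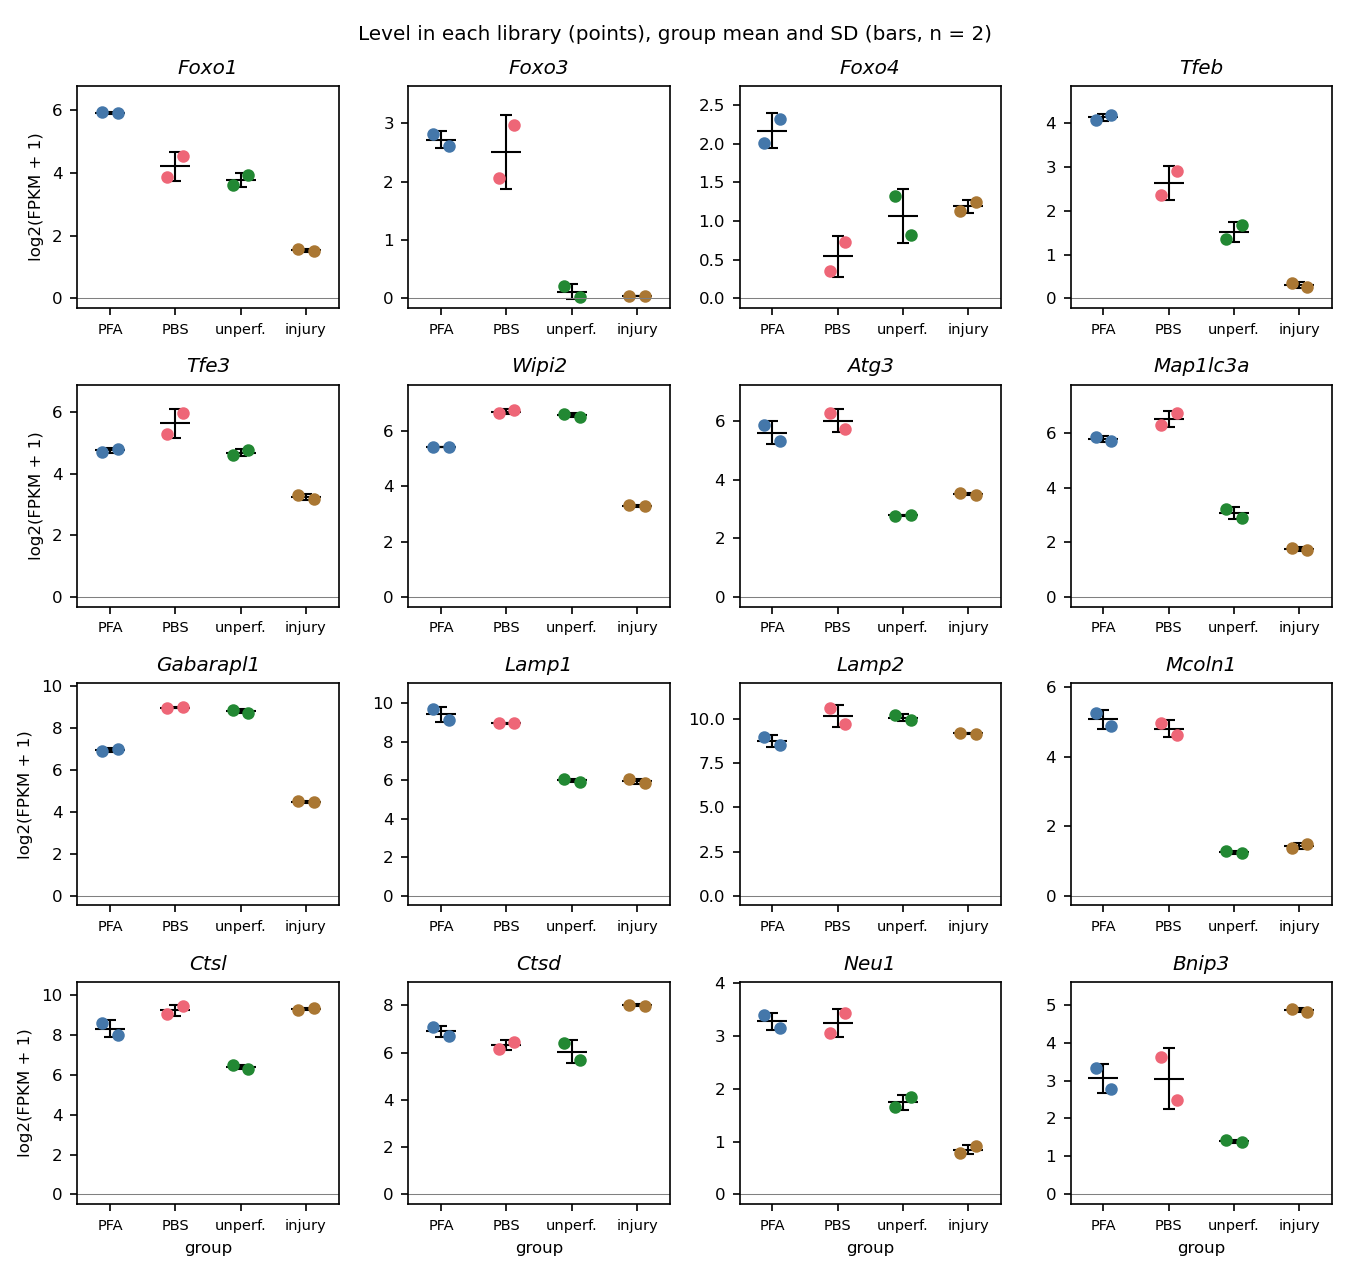
For 16 of the genes, points give the level of every library and bars the mean with its SD (n = 2 per group), as log2(FPKM + 1), with PFA, PBS, unperf. and injury for the 4 groups and an axis of its own for each gene. Foxo1 and Tfeb step down from PFA-perfused to injury-activated cells, Lamp1 and Mcoln1 fall into a high perfused pair and a low unperfused pair of groups, and Bnip3 is highest after injury.

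Of the genes that start an autophagosome, Wipi2, which binds phosphatidylinositol 3-phosphate and recruits Atg16l1, changed most after injury. Its levels were 41.6 and 41.7 FPKM in PFA-perfused, 97.5 and 107 in PBS-perfused, 96.8 and 89.6 in unperfused and 8.88 and 8.64 in injury-activated cells. PBS-perfused and unperfused cells were the highest and injury-activated cells the lowest, with PFA-perfused cells between them. Wipi2 fell by 3.27 ± 0.19 after injury (limma adjusted p = 1.6e-06, scaled -3.50), a 10.6-fold difference of means, and it was higher in PBS-perfused than in PFA-perfused cells (1.28 ± 0.19, limma adjusted p = 4.8e-04, scaled 1.87).

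Wipi1, a paralog of Wipi2, moved the other way after injury: its mean was 1.41 ± 0.274 FPKM (SD, n = 2) in unperfused and 4.05 ± 0.308 in injury-activated cells, a rise of 1.07 ± 0.22 (limma adjusted p = 0.00205, scaled 0.99). It was at 5.18 ± 1.28 in PFA-perfused and 3.06 ± 0.769 in PBS-perfused cells. The ratio of Wipi2 to Wipi1 within a library was 6.83 and 9.77 in PFA-perfused, 27.0 and 42.6 in PBS-perfused, 60.3 and 73.5 in unperfused and 2.08 and 2.26 in injury-activated cells. These ratios do not depend on scaling, and no library of 1 group lay within the range of another.

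Ulk1 and Ulk2, the kinases that receive the starvation signal from mTORC1 and AMPK, both fell after injury. Ulk1 went from 13.6 ± 0.881 FPKM in unperfused to 3.57 ± 0.813 in injury-activated cells (-1.69 ± 0.21, limma adjusted p = 8.0e-05, scaled -1.93), and Ulk2 from 6.07 ± 0.472 to 1.08 ± 0.128 (-1.76 ± 0.19, limma adjusted p = 3.4e-05, scaled -2.04). Ulk2 was also lower in PBS-perfused (3.17 ± 0.594) than in PFA-perfused cells (7.81 ± 0.349, difference -1.09 ± 0.19, scaled -0.55). Against PFA-perfused cells, neither kinase was called in unperfused cells, but both scaled differences were called higher (0.68 and 0.70).

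Atg9a, the lipid scramblase of the vesicles that seed the autophagosome, and Atg14, the subunit that brings the lipid kinase complex to it, were highest in unperfused cells. Atg9a was measured at 3.59 and 2.85 FPKM in PFA-perfused, 1.48 and 2.54 in PBS-perfused, 4.59 and 6.14 in unperfused and 1.25 and 1.19 in injury-activated cells. Atg14 stood at 2.42 and 2.10 in PFA-perfused, 2.23 and 2.49 in PBS-perfused, 5.43 and 5.36 in unperfused and 3.71 and 3.46 in injury-activated cells. Both were higher in unperfused than in PBS-perfused cells, Atg9a by 1.09 ± 0.23 (limma adjusted p = 0.00354) and Atg14 by 0.93 ± 0.17 (limma adjusted p = 0.00195), with scaled differences of 1.56 and 1.40. After injury Atg9a was lower by -1.51 ± 0.23 (scaled -1.77) and Atg14 by -0.48 ± 0.17 (scaled -0.68). The call for Atg14 after injury was lost without either unperfused or either injury-activated library (-0.44 to -0.52). For Atg9a, 31.8% of the exon bases are shared with another gene model on the same strand, so its level is uncertain.

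Becn1, the scaffold of the lipid kinase complex, was high in both perfused groups (68.3 ± 12.4 FPKM in PFA-perfused and 93.5 ± 36.3 in PBS-perfused cells) and low in unperfused (18.7 ± 0.793) and injury-activated cells (21.9 ± 0.975). It was lower in unperfused than in PBS-perfused cells (-2.20 ± 0.28, limma adjusted p = 2.4e-04, scaled -1.67). Of its exon bases, 43.9% overlap Cntd1 on the opposite strand, and no source used here says whether strand was counted.

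The 6 conjugation enzymes did not move as a unit. Atg7, the activating enzyme of both conjugation cascades, was at 6.25 and 4.59 FPKM in PFA-perfused, 3.90 and 3.98 in PBS-perfused, 15.5 and 15.8 in unperfused and 6.40 and 6.95 in injury-activated cells. Atg3, the enzyme that passes Atg8 proteins to lipid, was at 57.4 and 39.2 in PFA-perfused, 76.7 and 51.9 in PBS-perfused, 5.84 and 5.93 in unperfused and 10.6 and 10.2 in injury-activated cells. Unperfused cells were thus the highest for Atg7 and the lowest for Atg3, with no overlap with any other group. Against PBS-perfused cells, Atg7 was higher by 1.76 ± 0.20 (limma adjusted p = 1.3e-04, scaled 2.28) and Atg3 lower by -3.22 ± 0.26 (limma adjusted p = 1.9e-05, scaled -2.72). Against PFA-perfused cells the values were 1.39 ± 0.20 and -2.82 ± 0.26 (scaled 2.41 and -1.72).

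Atg5, the protein joined to Atg12 in the ligase of the second cascade, was higher after injury (20.8 ± 0.0417 FPKM) than in unperfused cells (6.95 ± 0.562), by 1.45 ± 0.19 (limma adjusted p = 1.2e-04, scaled 1.28). Atg16l1, the third part of that ligase, was lower after injury (3.78 ± 0.264 against 6.79 ± 0.479), by -0.70 ± 0.19 (scaled -0.92), and not called without either injury-activated library (-0.65 and -0.76). Atg12 was measured at 83.1 ± 18.9 in PFA-perfused, 153 ± 67.0 in PBS-perfused, 49.7 ± 5.25 in unperfused and 84.2 ± 0.0437 in injury-activated cells, and it was lower in unperfused than in PBS-perfused cells (-1.53 ± 0.32, limma adjusted p = 0.00364, scaled -0.98). Its rise in PBS-perfused over PFA-perfused cells (0.82 ± 0.32) was lost without each library in turn except PBS-perfused replicate 2, and was 0.36 without PBS-perfused replicate 1. With all libraries in place it was also lost with only the 2 groups compared, with no filter on low values, and without Rn45s and Malat1 (0.72). Atg4b, the protease that primes and recycles Atg8 proteins, was at 13.2 ± 7.50 in unperfused and 30.1 ± 1.01 in injury-activated cells, a rise of 1.24 ± 0.33 (limma adjusted p = 0.00838, scaled 1.06), with both unperfused libraries, at 18.5 and 7.87, below both injury-activated ones.

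In the Atg8 family, whose members coat the autophagosome membrane, all 5 genes were called lower after injury than in unperfused cells, with and without scaling. Gabarapl1 was at 118 and 129 FPKM in PFA-perfused, 499.5 and 505 in PBS-perfused, 464 and 425 in unperfused and 22.0 and 21.0 in injury-activated cells. It stood highest in the unfixed, uninjured cells, where PBS-perfused libraries lay just above unperfused ones, and lowest after injury. Its fall after injury was -4.31 ± 0.22 (limma adjusted p = 8.5e-07, scaled -4.53), or 20.7-fold between means. Its rise over PFA-perfused cells was 2.02 ± 0.22 in PBS-perfused (limma adjusted p = 9.5e-05, scaled 2.62) and 1.84 ± 0.22 in unperfused cells (limma adjusted p = 6.0e-05, scaled 3.005). Of its exon bases, 28.3% overlap 1700101I11Rik on the opposite strand.

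Map1lc3a, one of the LC3 genes, had a different profile, at 57.6 and 51.6 FPKM in PFA-perfused, 78.2 and 105 in PBS-perfused, 8.40 and 6.52 in unperfused and 2.50 and 2.29 in injury-activated cells. Both perfused groups were high and both unperfused groups low. It was lower in unperfused than in PBS-perfused cells by -3.44 ± 0.22 (limma adjusted p = 7.0e-06, scaled -2.93) and after injury than in unperfused cells by -1.31 ± 0.22 (limma adjusted p = 6.0e-04, scaled -1.54). The rise in PBS-perfused over PFA-perfused cells (0.72 ± 0.22, scaled 1.32) was not called without PFA-perfused replicate 2 (0.64) or PBS-perfused replicate 2 (0.51).

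Map1lc3b, the LC3 gene most used as an autophagy marker, was at 65.8 and 54.8 FPKM in PFA-perfused, 129.6 and 75.6 in PBS-perfused, 103 and 73.7 in unperfused and 50.6 and 47.2 in injury-activated cells. Gabarap was at 126 and 122, then 206 and 141, then 124 and 106, and 45.6 and 41.4 in the same order of groups. Gabarapl2, which has near-identical pseudogene copies and is therefore uncertain, was at 26.4 and 21.1, then 19.3 and 22.1, then 21.6 and 17.1, and 11.6 and 11.7. For each of these 3 genes both injury-activated libraries were below every other library. The falls after injury against unperfused cells were -0.82 ± 0.30 for Map1lc3b, -1.38 ± 0.25 for Gabarap and -0.67 ± 0.21 for Gabarapl2 (limma adjusted p = 0.0329, 8.7e-04 and 0.0184), with scaled values of -1.03, -1.59 and -0.88. Map1lc3b and Gabarapl2 were not called without unperfused replicate 1 (-0.58 and -0.51) or either injury-activated library (-0.77 and -0.87, and -0.68 and -0.67). Gabarap and Gabarapl2, at -0.11 and -0.28 in unperfused against PFA-perfused cells, had scaled differences of 1.05 and 0.83 that were called higher.

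Gabarapl1 made up 30.0% and 34.1% of the summed FPKM of the 5 Atg8 genes in PFA-perfused, 53.6% and 59.5% in PBS-perfused, 64.4% and 67.7% in unperfused and 16.6% and 17.0% in injury-activated cells. The sum itself was 394 and 378 FPKM in PFA-perfused, 932 and 848 in PBS-perfused, 722 and 628 in unperfused and 132 and 124 in injury-activated cells. The share and the sum were both lowest after injury, with no overlap with another group.

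**Figure D4:**
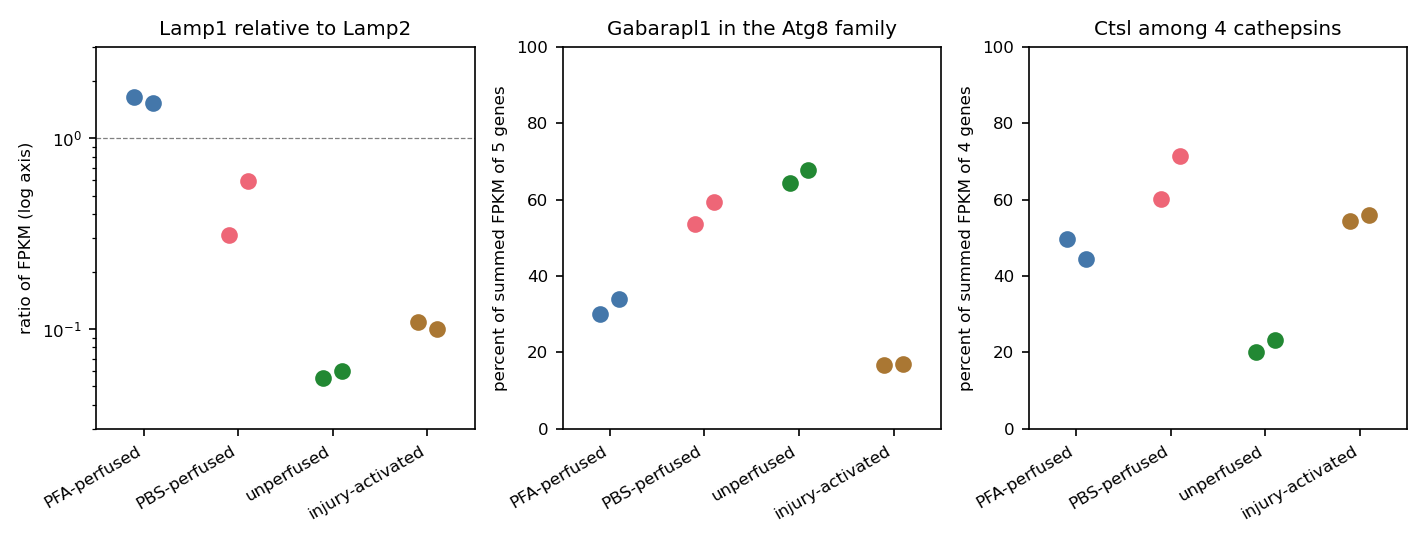
Ratio of Lamp1 to Lamp2 FPKM (left, log axis), share of Gabarapl1 in the summed FPKM of the 5 Atg8 genes (middle, percent) and share of Ctsl in the summed FPKM of Ctsa, Ctsb, Ctsd and Ctsl (right, percent), with 1 point per library. The Lamp1 to Lamp2 ratio is above 1 only in the PFA-perfused libraries, the Gabarapl1 share is lowest after injury and the Ctsl share is lowest in unperfused cells.

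Bnip3, a mitophagy receptor of the outer mitochondrial membrane that hypoxia induces, showed the largest rise of the 38 genes after injury. It was at 9.09 and 5.91 FPKM in PFA-perfused, 11.3 and 4.58 in PBS-perfused, 1.70 and 1.58 in unperfused and 28.7 and 27.2 in injury-activated cells. Injury-activated libraries were above and unperfused libraries below all others. The rise over unperfused cells was 3.46 ± 0.35 (limma adjusted p = 2.4e-05, also called after scaling) and over PFA-perfused cells 1.79 ± 0.35 (limma adjusted p = 0.00127, scaled 2.64). Its relative Bnip3l, or Nix, was at 75.6 ± 30.2 in PFA-perfused, 35.5 ± 13.9 in PBS-perfused, 37.1 ± 10.9 in unperfused and 54.7 ± 5.40 in injury-activated cells, and was not called after injury (0.58 ± 0.36). The falls of Bnip3l against PFA-perfused cells (-1.06 in PBS-perfused and -0.98 in unperfused cells) were lost after scaling, where the second became 0.17, and without PFA-perfused replicate 1 (-0.65 and -0.57). The first was also lost without PBS-perfused replicate 2 (-0.67) and the second without unperfused replicate 2 (-0.68). Both genes have near-identical copies elsewhere in the genome, so their levels are uncertain.

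Lamp1 and Lamp2, the 2 main glycoproteins of the lysosomal membrane, went in opposite directions between fixed and unperfused cells. Lamp1 was at 832 and 563 FPKM in PFA-perfused, 489.9 and 501 in PBS-perfused, 65.5 and 59.6 in unperfused and 64.8 and 56.5 in injury-activated cells. Lamp2 was at 508 and 371 in PFA-perfused, 1580.4 and 841 in PBS-perfused, 1186 and 987 in unperfused and 598 and 567 in injury-activated cells. Both perfused groups were high for Lamp1, whereas PFA-perfused cells were the lowest for Lamp2. In unperfused against PFA-perfused cells Lamp1 was lower by -3.43 ± 0.26 (limma adjusted p = 5.2e-06, scaled -2.27), or 11.2-fold between means, and Lamp2 higher by 1.32 ± 0.36 (limma adjusted p = 0.00896, scaled 2.49). Lamp1 was lower in unperfused than in PBS-perfused cells by -2.97 ± 0.26 (limma adjusted p = 3.1e-05, scaled -2.41), and unperfused and injury-activated cells overlapped. The call for Lamp2 was lost without PFA-perfused replicate 2, both in unperfused (1.09) and in PBS-perfused cells (1.18, from 1.41 ± 0.36). The ratio of Lamp1 to Lamp2 within a library was 1.64 and 1.52 in PFA-perfused, 0.310 and 0.596 in PBS-perfused, 0.0552 and 0.0603 in unperfused and 0.108 and 0.0996 in injury-activated cells.

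Mcoln1, the lysosomal calcium channel whose opening activates TFEB, followed Lamp1. Its levels were 37.6 and 28.6 FPKM in PFA-perfused, 30.6 and 23.7 in PBS-perfused, 1.43 and 1.34 in unperfused and 1.60 and 1.81 in injury-activated cells. The perfused groups overlapped, and every perfused library was above 20 FPKM and every unperfused or injury-activated library below 2. The difference of unperfused from PBS-perfused cells was -3.55 ± 0.22 (limma adjusted p = 5.2e-06, scaled -3.18) and from PFA-perfused cells -3.83 ± 0.22 (limma adjusted p = 1.4e-06, scaled -2.86). These were the largest falls of the 38 genes in those comparisons on the scale of log2(FPKM + 1). By the ratio of means Foxo3 fell further, 64.6-fold against PFA-perfused cells, to a mean of 0.0862 FPKM. Npc1, the cholesterol exporter, varied little, from 10.5 ± 0.722 in injury-activated to 18.4 ± 1.59 in PFA-perfused cells, with 18.1 ± 3.41 in unperfused cells. It was lower after injury than in unperfused cells (-0.72 ± 0.20, scaled -0.94), but not called without either injury-activated library (-0.66 and -0.79), and its difference in unperfused against PFA-perfused cells (-0.03) became 1.08 and called higher after scaling.

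TFEB and TFE3 bind E-boxes of the sequence CACGTG, often within a longer palindrome, the CLEAR element, and FoxO factors bind GTAAACA. Promoter windows from 250 bases before to 50 after the start, from RefSeq on GRCm38.p6, a later build than the mm9 of the data, were found for 30 of the 38 genes. CACGTG, searched on both strands, was in the windows of 11 of these 30 genes (Atg14, Atg3, Atg5, Atg7, Bnip3, Ctsa, Ctsd, Ctsl, Gaa, Lamp1 and Mcoln1) and of 8.09% of the 27025 genes with a window. The longer TCACGTGA, which contains CACGTG, was in 4 (Atg3, Ctsa, Ctsd and Mcoln1) and in 1.12% of all genes. The CLEAR element and GTAAACA (or its reverse TGTTTAC) were in none of the 30, and in 0.37% and 4.05% of all genes. A match is only a description of these letters in this window.

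Several E-boxes were in the windows of 5 genes, and the stretches of 4 of them are shown: Lamp1 on the plus strand of chr8:13159070-13159160, Mcoln1 on the plus strand of chr8:3500418-3500509, Atg3 on the plus strand of chr16:45158705-45158793 and Ctsa on the plus strand of chr2:164833731-164833783. The other, Ctsd, whose 2 E-boxes lie farther apart, is not printed. Capitals mark CACGTG, and each is written 5′ to 3′.
Lamp1: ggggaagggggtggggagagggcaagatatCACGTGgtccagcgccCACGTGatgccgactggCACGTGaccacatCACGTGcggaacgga
Mcoln1: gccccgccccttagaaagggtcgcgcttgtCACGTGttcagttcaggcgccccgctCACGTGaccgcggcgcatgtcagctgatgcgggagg
Atg3: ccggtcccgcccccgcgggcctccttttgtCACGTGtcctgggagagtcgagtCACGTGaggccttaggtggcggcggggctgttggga
Ctsa: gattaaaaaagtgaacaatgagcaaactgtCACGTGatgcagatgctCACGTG
Lamp1 holds 4 E-boxes, which begin 61, 45, 28 and 15 bases before the start, and Mcoln1 holds 2, at 71 and 45 bases before it. The E-boxes of Ctsa begin 12 bases before the start and at base 6 after it. The window of another Ctsa start holds no E-box.

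In unperfused against PFA-perfused cells, 9 of the 11 genes with CACGTG were called lower and 2 higher (Atg7 and Atg14), beside 9 lower and 4 higher of the 19 genes with a window but without it, and 56.3% lower and 17.4% higher of all genes tested. After scaling, 5 of 11 and 5 of 19 were lower and 2 of 11 and 10 of 19 higher, beside 31.6% and 36.2% of all genes. After injury, relative to unperfused cells, 6 of the 11 were higher and 2 lower, and 4 of the 19 were higher and 12 lower. Of all genes, 40.8% were higher and 29.3% lower. The scaled counts were 5 and 2, and 4 and 13, beside 39.7% and 34.5% of all genes. No test was made of these counts.

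Ctsl, the cathepsin L gene, was at 394 and 259 FPKM in PFA-perfused, 529.9 and 697 in PBS-perfused, 87.8 and 78.4 in unperfused and 616 and 646 in injury-activated cells. Unperfused cells were the lowest without overlap, and injury-activated and PBS-perfused cells overlapped at the top. Ctsl rose after injury by 2.91 ± 0.29 (limma adjusted p = 2.3e-05, scaled 2.70), or 7.60-fold between means, and was lower in unperfused than in PBS-perfused cells by -2.86 ± 0.29 (limma adjusted p = 7.0e-05, scaled -2.30). Its rise in PBS-perfused over PFA-perfused cells (0.93 ± 0.29) was not called without PFA-perfused replicate 2 (0.63) or PBS-perfused replicate 2 (0.73). The rise in injury-activated over PFA-perfused cells (0.98 ± 0.29, scaled 1.94) was not called without PFA-perfused replicate 2 (0.68), without either injury-activated library (1.01 and 0.95) or after quantile normalization (0.27). A gene model antisense to Ctsl shares 26.9% of its exon bases.

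Ctsa, or protective protein, which stabilizes the sialidase Neu1 and beta-galactosidase, was at 32.1 and 32.6 FPKM in PFA-perfused, 19.3 and 14.9 in PBS-perfused, 5.95 and 4.04 in unperfused and 32.3 and 28.7 in injury-activated cells. Unperfused cells were the lowest, and the injury-activated cells overlapped the fixed cells. From unperfused to injury-activated cells Ctsa rose by 2.41 ± 0.23 (limma adjusted p = 1.7e-05, scaled 2.26). In injury-activated against PFA-perfused cells the difference was -0.09, and after scaling 0.84 and called higher. Ctsd, the aspartic protease cathepsin D, was at 133 and 105 in PFA-perfused, 70.3 and 87.2 in PBS-perfused, 83.0 and 51.2 in unperfused and 262 and 251 in injury-activated cells, the highest group without overlap. Ctsd rose by 1.96 ± 0.28 over unperfused cells (limma adjusted p = 2.2e-04, scaled 1.75) and by 1.11 ± 0.28 over PFA-perfused cells (limma adjusted p = 0.00608, scaled 2.06), the latter not called without PFA-perfused replicate 2 (0.94). Of its exon bases, 34.4% are shared with another gene model on the same strand.

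Ctsb, cathepsin B, had nearly level means of 208 ± 34.0 FPKM in PFA-perfused, 219 ± 59.9 in PBS-perfused, 233 ± 40.8 in unperfused and 225 ± 6.86 in injury-activated cells and was called in none of the 5 comparisons (limma adjusted p from 0.632 to 0.912), although the scaled differences from PFA-perfused cells were called higher in the 3 other groups (0.66, 1.32 and 1.07). Of the 4 cathepsin genes together, Ctsl took 49.7% and 44.6% of the FPKM in PFA-perfused, 60.1% and 71.4% in PBS-perfused, 20.01% and 23.2% in unperfused and 54.5% and 55.9% in injury-activated cells. Unperfused cells were the lowest in this share, with no library of another group near them.

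Npc2, the soluble cholesterol carrier, and Psap, the precursor of the saposins that open sphingolipids to hydrolysis, rose after injury as Ctsd did. Npc2 went from 38.9 ± 12.3 FPKM in unperfused to 142 ± 7.97 in injury-activated cells (1.88 ± 0.27, limma adjusted p = 2.0e-04, scaled 1.68), and Psap from 48.3 ± 8.56 to 168 ± 16.6 (1.79 ± 0.31, limma adjusted p = 6.9e-04, scaled 1.58). In PFA-perfused cells Npc2 was at 126 ± 11.3 and Psap at 159 ± 34.9, and neither was called after injury against them (0.18 and 0.10), although both scaled differences were called higher (1.13 and 1.05). The rises of the lumen genes went with the highest summed myeloid markers (86.4 to 94.9 FPKM after injury, against 27.3 to 39.1 in unperfused cells). Most of the unperfused sum was Cd68, at a mean of 27.5 FPKM. Myofibre markers summed to 277 to 321 FPKM against 59.6 to 64.5 and fibro-adipogenic markers to 170.0 to 192 against 882 to 1114. Of 11 tested myeloid markers, 9 were called higher and 1 lower, and of 8 tested myofibre markers 6 higher and 0 lower. Of 10 tested fibro-adipogenic markers, 5 were called higher and 3 lower. These counts stand beside 40.8% higher and 29.3% lower of all genes. The part of such cells in the rises of the lumen genes was not tested.

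Neu1, the sialidase, went down after injury instead, from 2.37 ± 0.325 FPKM in unperfused to 0.805 ± 0.111 in injury-activated cells (-0.90 ± 0.21, limma adjusted p = 0.00369, scaled -1.13), and was at 8.74 ± 1.13 in PFA-perfused and 8.59 ± 1.81 in PBS-perfused cells. Gaa, which degrades glycogen, and Hexa, which degrades gangliosides, were highest in PFA-perfused cells, at 25.8 ± 5.02 and 42.3 ± 9.99, and were at 10.2 ± 1.90 and 13.0 ± 3.14 in unperfused and 9.31 ± 0.153 and 14.6 ± 1.93 in injury-activated cells. Their falls in unperfused against PFA-perfused cells (-1.25 ± 0.24 and -1.63 ± 0.25) were not called after scaling (-0.15 and -0.51). Neither gene was called after injury against unperfused cells (-0.11 and 0.17).

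The other genes of the pathway were taken from lists that do not overlap the 38, and their counts are given beside the shares of all genes tested. Subunit genes of the V-ATPase, the proton pump that acidifies the lysosome, were mostly higher after injury than in unperfused cells. Of 18 tested, 14 were called higher and 1 lower, beside 40.8% and 29.3% of all genes tested. Their median was 1.03 against 0.17, and the scaled counts were 13 and 2. Atp6v0a2 went from a mean of 2.95 to 23.7 FPKM (2.65 ± 0.23), Atp6v1e1 from 6.50 to 30.7 (2.09 ± 0.22) and Atp6ap1 from 14.4 to 61.1 (2.07 ± 0.28), with limma adjusted p = 9.4e-06, 3.3e-05 and 1.6e-04. In unperfused against PFA-perfused cells 14 of the subunits were called lower, beside 56.3% of all genes. After scaling, however, 5 were higher and 3 lower, beside 36.2% and 31.6%. In injury-activated against PFA-perfused cells 4 were called higher and 5 lower, beside 26.1% and 47.3% of all genes. The scaled counts there were 13 and 2, beside 43.3% and 30.1%.

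Of 39 other hydrolases and lumen proteins, 28 were called lower and 4 higher in unperfused than in PFA-perfused cells, beside 56.3% and 17.4% of all genes (scaled 16 and 9, beside 31.6% and 36.2%). After injury 16 were higher and 5 lower than in unperfused cells (scaled 16 and 7), and the share higher, 41.0%, was near the 40.8% of all genes, with 29.3% lower. Ctsf, cathepsin F, was at a mean of 95.1 FPKM in PFA-perfused, 40.9 in PBS-perfused, 7.35 in unperfused and 2.33 in injury-activated cells. Glb1, beta-galactosidase, rose after injury from 1.66 to 16.8 (2.75 ± 0.21, limma adjusted p = 5.8e-06), and Grn, progranulin, from 23.5 to 99.1 (2.03 ± 0.23, limma adjusted p = 5.1e-05). Ctss, cathepsin S, which is also a myeloid marker here, went from 0.248 to 12.2. Of 24 tested genes of the lysosomal membrane, 17 were lower and 3 higher in unperfused than in PFA-perfused cells (scaled 11 and 6), beside the same shares of all genes. After injury 6 were lower and 4 higher than in unperfused cells, beside 29.3% and 40.8%.

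In a list of 15 genes named for cargo receptors, Sqstm1 encodes p62, which is itself degraded by autophagy. Sqstm1 was at 155 and 137 FPKM in PFA-perfused, 758 and 1119 in PBS-perfused, 130.0 and 113 in unperfused and 23.3 and 22.1 in injury-activated cells. PBS-perfused cells stood above and injury-activated cells below all others. Sqstm1 was higher in PBS-perfused than in PFA-perfused cells by 2.65 ± 0.26 (limma adjusted p = 5.9e-05, scaled 3.25) and lower after injury than in unperfused cells by -2.37 ± 0.26 (limma adjusted p = 3.7e-05, scaled -2.59). Pink1 encodes the kinase that marks damaged mitochondria, and not a receptor. Pink1 was at 327 and 189 in PFA-perfused, 101 and 170.2 in PBS-perfused, 11.3 and 9.69 in unperfused and 0.728 and 0.658 in injury-activated cells. It was lower by -4.45 ± 0.32 in unperfused than in PFA-perfused cells (limma adjusted p = 3.8e-06, scaled -3.31) and by -2.76 ± 0.32 after injury than in unperfused cells (limma adjusted p = 5.3e-05, scaled -3.09). Of the 15, 7 were lower and 4 higher after injury than in unperfused cells, beside 29.3% and 40.8% of all genes (scaled 8 and 4, beside 34.5% and 39.7%).

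Of 26 further autophagy genes, 8 were called higher and 8 lower after injury than in unperfused cells, beside 40.8% and 29.3% of all genes (scaled 8 and 12, beside 39.7% and 34.5%). The fusion proteins Vamp8 and Stx17, which join autophagosome and lysosome, rose after injury, Vamp8 from a mean of 2.92 to 24.2 FPKM (2.68 ± 0.22, limma adjusted p = 7.0e-06) and Stx17 from 4.68 to 23.6 (2.17 ± 0.27, limma adjusted p = 7.7e-05). Rb1cc1, the scaffold of the Ulk1 complex, fell from 167 to 32.9 (-2.30 ± 0.29, limma adjusted p = 9.1e-05) and Atg2a, which carries lipid to the autophagosome, from 39.2 to 4.35 (-2.90 ± 0.29, limma adjusted p = 2.1e-05).

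Of 25 tested target genes of FoxO factors, among them Pink1, 14 were called lower and 3 higher in injury-activated than in unperfused cells (scaled 14 and 2), beside 29.3% and 40.8% of all genes, with a median of -1.09. Cdkn1b, which encodes the cell cycle inhibitor p27, was at 7.61 and 9.66 FPKM in PFA-perfused, 1.88 and 3.36 in PBS-perfused, 57.1 and 127 in unperfused and 3.26 and 3.97 in injury-activated cells. It was lower after injury than in unperfused cells by -4.23 ± 0.36 (limma adjusted p = 9.7e-06, scaled -4.49). Gadd45a, a stress gene, was highest in PBS-perfused cells (519 and 425, against 40.9 and 31.4 in PFA-perfused cells), and Bcl6, a repressor, in PFA-perfused cells (314 and 287, against 7.54 and 7.48 in unperfused cells). Fbxo32, which encodes the muscle ubiquitin ligase atrogin-1, was at 8.06 and 11.9 in unperfused and 2.95 and 3.91 in PFA-perfused cells, a rise of 1.29 ± 0.25 (limma adjusted p = 0.00118, scaled 2.24). Against PFA-perfused cells, 11 targets were lower and 8 higher in PBS-perfused cells, and 11 lower and 10 higher in unperfused cells (scaled 8 and 12, and 9 and 13). Of all genes, 46.2% were lower and 17.8% higher in PBS-perfused and 56.3% and 17.4% in unperfused cells, with scaled shares of 25.6% and 28.4%, and of 31.6% and 36.2%.

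The genes of mTORC1 and its inputs, which act on TFEB and Ulk1, had 15 of 29 tested called higher and 7 lower after injury than in unperfused cells, the same counts after scaling, and a median of 1.22, beside 40.8%, 29.3% and a median of 0.17 for all genes. Lamtor1, an anchor of mTORC1 on the lysosome, went from a mean of 4.11 to 32.7 FPKM (2.76 ± 0.24, limma adjusted p = 1.1e-05). The AMPK subunit gene Prkag1 went from 19.6 to 150 (2.90 ± 0.24, limma adjusted p = 8.0e-06), and Deptor, an inhibitor of mTOR, from 457 to 39.2 (-3.49 ± 0.26, limma adjusted p = 4.8e-06). In unperfused against PFA-perfused cells the list had 21 genes lower and 4 higher, beside 56.3% and 17.4% of all genes (scaled 12 and 7, beside 31.6% and 36.2%).

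**Figure D5:**
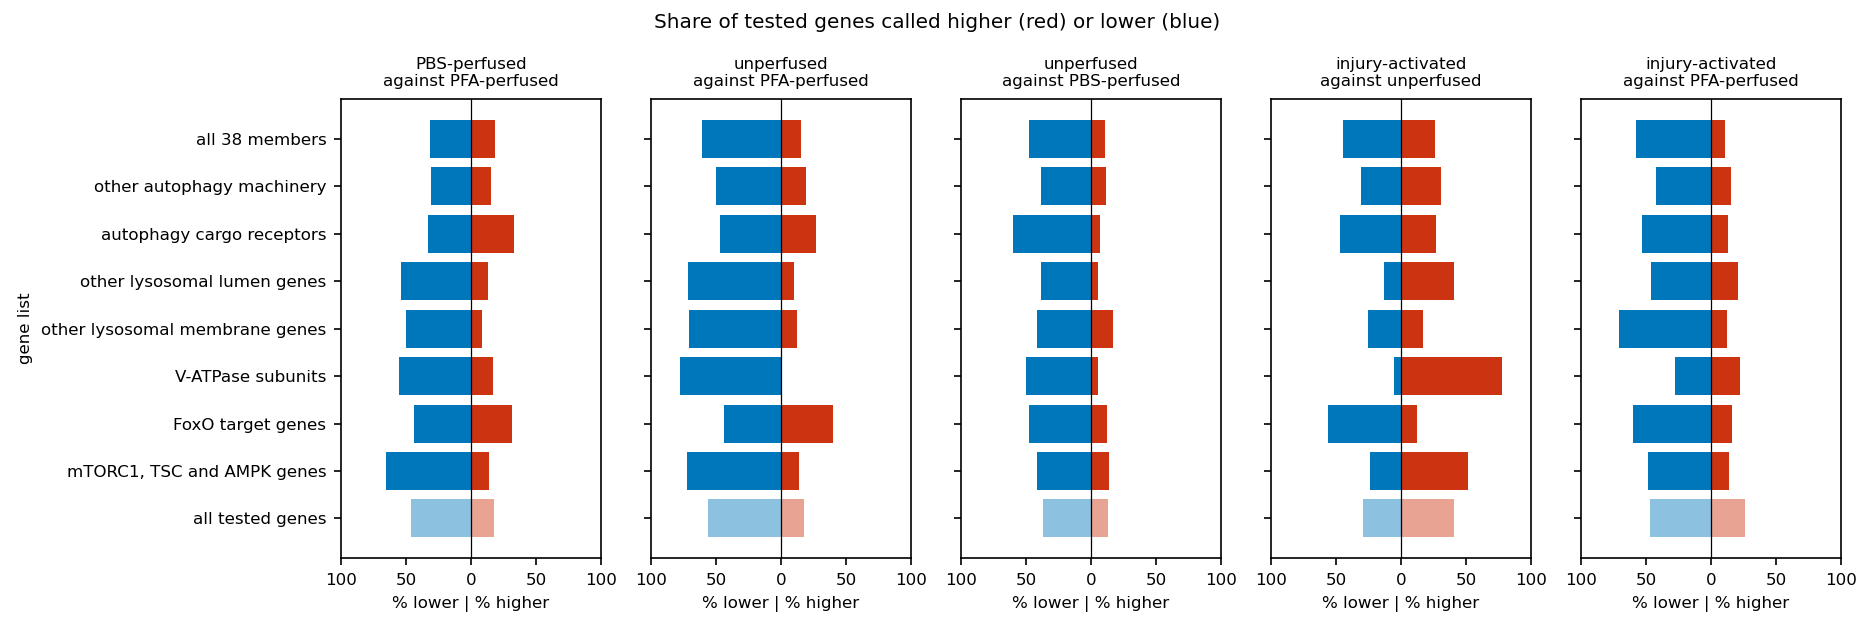
Share of tested genes called lower (blue, to the left, percent) and higher (red, to the right, percent) in each of the 5 comparisons, without scaling, for the 38 genes, 7 other lists of the pathway and all genes tested (pale bars). After injury against unperfused cells, 77.8% of the V-ATPase subunits were higher and 56.0% of the FoxO target genes lower, beside 40.8% and 29.3% of all genes.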

How the data were processed

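The authors deposited 1 table, with 24328 symbols in rows and the 8 libraries in columns. No unit stands in its header, and the deposited values were taken as FPKM because they hold decimals and their library totals differ (461454 to 582336). The submitters' processing notes name the build mm9 and the tools StringTie 1.3.3, STAR 2.5.3a and R 3.4.1. A part of the 2 sequencers that the series text lists was not tested, as it ties neither to a library. The table holds no counts, so depth is unknown.

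Values were analysed as log2(FPKM + 1). The 12515 genes that reached 1 FPKM in 2 or more libraries entered 1 fit of 4 groups and 8 libraries in limma 3.58.1 (R 4.3.3) with the variance trend, and 5 two-sided contrasts were tested, with Benjamini-Hochberg adjustment over all genes. The test was run on simulated data with independent noise and shifts in some genes of a single group. Those data held no shift in overall level, so they cannot show how the test handles the shifts seen here. Alternatives were the replicate number as a block, the 2 compared groups alone, no filter, a filter of 5 FPKM, a pseudocount of 0.1, trimmed mean scaling (trims of 0.3 and 0.05), quantile normalization, removal of Rn45s and Malat1, and each library left out.

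The members, lists and named genes were chosen with earlier results of these data known. The members were given by symbol. All may be named, with values in every library for the 5 regulators, the Atg8 family and the 3 largest called rises and falls of a comparison. From 8 other pathway lists, the 3 largest called rises and falls whose higher group mean reached 10 FPKM may be named, with Sqstm1, Mitf, Fbxo32 and Ctss. Near copies and exon overlaps were read from GENCODE transcripts on GRCm38, and promoters from RefSeq on GRCm38.p6.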

Additional observations from a re-analysis of the deposited data

How the results depend on the processing

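With trimmed mean scaling, the genes called higher numbered 13 in place of 7 and those called lower 5 in place of 12 for PBS-perfused against PFA-perfused cells, 14 in place of 6 and 11 in place of 23 for unperfused against PFA-perfused, 8 in place of 4 higher for unperfused against PBS-perfused, and 14 in place of 4 higher for injury-activated against PFA-perfused cells. Under this scaling 35 of 190 differences of single genes changed sign. Of these, 23 were called neither with nor without it, 11 of them for PBS-perfused against PFA-perfused cells, and 12 were called in at least 1 of the fits. For unperfused against PFA-perfused cells the 12 included Tfe3 (1.04), Ulk1 (0.68), Ulk2 (0.70), Gabarap (1.05), Gabarapl2 (0.83), Bnip3l (0.17), Npc1 (1.08) and Ctsd (0.31), of which Ulk2 (0.67) and Npc1 (0.65) also changed with quantile normalization. The other genes of the 12 were Atg5 (0.50) for unperfused against PBS-perfused cells, and Map1lc3b (0.65), Npc1 (0.14) and Ctsa (0.84) for injury-activated against PFA-perfused cells.

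With 1 library left out in turn, the genes called higher and lower numbered 3 to 7 and 6 to 13 for PBS-perfused against PFA-perfused cells, 4 to 6 and 20 to 24 for unperfused against PFA-perfused, 4 to 5 and 14 to 18 for unperfused against PBS-perfused, 9 to 11 and 12 to 18 for injury-activated against unperfused, and 1 to 4 and 21 to 22 for injury-activated against PFA-perfused cells. The lone library of a group is then assumed to vary like the other groups. Calls made the same way under every alternative numbered 7 of 19, 14 of 29, 15 of 22, 21 of 27 and 16 of 26 in the same order.

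Deviations of same-numbered libraries were weakly correlated across genes (correlations from -0.0467 to 0.117). With 2 libraries in each group, this cannot decide whether the numbers pair libraries. With the replicate block, 184 of 190 results kept their call and 6 gained one.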
